A study of Homo sapiens with 12 samples.

Results

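Transcripts of 9 genes of HLA class I antigen presentation were followed across 2 human B-lineage leukaemia lines with and without editing of SETD2. The genes were picked by symbol from the deposited count table: the heavy chains HLA-B, HLA-C, HLA-E and HLA-F, the light chain B2M, the peptide transport and bridging genes TAP1, TAP2 and TAPBP, and the transactivator NLRC5. They are 9 of the 59611 symbols in the table, and all 9 passed the filter on low counts.

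Poly-A-selected, stranded RNA-seq was made in 12 libraries, 3 in each of 4 groups. Edited 697 was clone BM_B, made with a guide RNA against SETD2 and labelled heterozygous knockout, and control 697 carried an empty vector and is labelled SETD2 wild type. Edited KOPN-8 was clone BA, with the same genotype label, and control KOPN-8 carried the empty vector and is labelled wild type. All cells were grown in RPMI medium with serum and no further treatment, and both lines are labelled as B-lineage acute lymphoblastic leukaemia. SETD2 is the main methyltransferase for lysine 36 trimethylation of histone H3. Each edited group is 1 clone, so the edit cannot be told apart from other differences of that clone, and the labels do not say whether the controls are clonal. The 3 libraries of a group are labelled as biological replicates without further detail, so p-values measure only the spread between these libraries, which may be technical. In these bulk samples, fewer cells of a type and less RNA per cell cannot be told apart.

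Class I molecules show peptides from inside the cell to CD8 T cells and to natural killer cells. A heavy chain pairs with beta-2 microglobulin in the endoplasmic reticulum. The TAP1 and TAP2 transporter carries in peptides made by the proteasome, and tapasin, the product of TAPBP, holds empty class I molecules at the transporter. HLA-B and HLA-C are classical, highly polymorphic chains, HLA-E shows signal peptides of other class I chains to NK receptors, and HLA-F is a non-classical chain. NLRC5 binds the enhanceosome of RFX, CREB family and NF-Y factors at the X and Y boxes of class I promoters. Interferon gamma signalling and NF-kB also act on these promoters.

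Reference sequences of the promoters are shown because X and Y boxes, interferon response elements and NF-kB sites are known parts of class I promoters, and the members differ in which of these letters they hold. RefSeq promoters (GRCh38.p14) were matched for 7 of the 9 members, all but HLA-E and NLRC5. Each is written 5′ to 3′ in lower case, with capitals for matches to core letters of the Y box, the X2 box, the interferon response element or the NF-kB site, spelled out after the sequences. These are reference letters and not the alleles of 697 or KOPN-8. The first 4 show the 200 bases before the start site, at chr6:31357180-31357379 (minus strand) for HLA-B, chr6:31272093-31272292 (minus strand) for HLA-C, chr6:29723234-29723433 (plus strand) for HLA-F and chr15:44711317-44711516 (plus strand) for B2M.
HLA-B: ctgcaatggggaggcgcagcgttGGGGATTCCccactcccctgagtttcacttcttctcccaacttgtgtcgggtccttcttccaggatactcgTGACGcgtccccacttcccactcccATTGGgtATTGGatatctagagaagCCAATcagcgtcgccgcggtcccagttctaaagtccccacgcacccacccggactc
HLA-C: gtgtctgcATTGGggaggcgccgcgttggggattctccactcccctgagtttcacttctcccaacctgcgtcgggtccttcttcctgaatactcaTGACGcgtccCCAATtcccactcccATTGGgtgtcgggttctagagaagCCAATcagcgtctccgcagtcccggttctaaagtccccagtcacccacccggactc
HLA-F: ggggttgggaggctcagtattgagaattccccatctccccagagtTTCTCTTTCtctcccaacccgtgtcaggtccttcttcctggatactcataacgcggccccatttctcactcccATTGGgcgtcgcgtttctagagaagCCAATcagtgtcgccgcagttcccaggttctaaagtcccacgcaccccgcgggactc
B2M: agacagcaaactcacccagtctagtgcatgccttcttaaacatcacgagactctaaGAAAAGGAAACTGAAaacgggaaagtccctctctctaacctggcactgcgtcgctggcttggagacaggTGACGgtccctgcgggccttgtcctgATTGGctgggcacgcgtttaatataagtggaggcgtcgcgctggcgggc
For the transport genes 80 bases are shown, at chr6:32853775-32853854 (minus strand) for TAP1, chr6:32838740-32838819 (minus strand) for TAP2 and chr6:33314079-33314158 (minus strand) for TAPBP. The TAP1 stretch runs between 150 and 71 bases before the start, and the other stretches end just before it.
TAP1: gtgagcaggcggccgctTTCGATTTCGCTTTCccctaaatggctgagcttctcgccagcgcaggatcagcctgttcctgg
TAP2: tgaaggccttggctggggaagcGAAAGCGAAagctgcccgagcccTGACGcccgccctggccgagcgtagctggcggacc
TAPBP: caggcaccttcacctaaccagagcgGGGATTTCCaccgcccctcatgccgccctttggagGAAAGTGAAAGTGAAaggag

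Searched on both strands in the 250 bases before the start, the Y box core CCAAT, or ATTGG on the other strand, was found in 5 of the 7 promoters (B2M, HLA-B, HLA-C, HLA-F and TAP1), against 32.0% of all 35116 RefSeq promoters. The TAP1 match, at -249 to -245 from the start, lies at the edge of the window and outside the stretch shown. The X2 box core TGACG, or CGTCA on the other strand, was found in 4 (B2M, HLA-B, HLA-C and TAP2), against 21.2% of all promoters. The interferon response core GAAANNGAA, or TTCNNTTTC on the other strand, was found in 5 (B2M, HLA-F, TAP1, TAP2 and TAPBP), against 6.88% of all promoters, and pairs of matches overlapped each other in B2M, TAP1 and TAPBP. The NF-kB core GGGNNTTCC, or GGAANNCCC on the other strand, was found in HLA-B and TAPBP, against 5.78% of all promoters. The HLA-F window holds no TGACG. A match is a description of these letters only.

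Library totals ran between 10378769 and 14350925 counts in edited 697, 13432744 and 17163305 in control 697, 13239627 and 18278662 in edited KOPN-8, and 13208436 and 17959678 in control KOPN-8, and 15218 genes were tested. Levels are given as CPM, the reads of a gene scaled to its library's TMM-adjusted total. SETD2 was at 219 ± 17.2 CPM in edited 697, against 161 ± 6.96 CPM in control 697 (SD, n = 3 each; log2 fold change 0.44, edgeR adjusted p = 0.000103), and at 158 ± 6.05 CPM in edited KOPN-8, against 169 ± 9.23 CPM in control KOPN-8 (log2 fold change -0.10, edgeR adjusted p = 0.309). SETD2 mRNA was thus not lower by the test under the knockout label in either line, and these data hold no measure of the protein. The 8 B-lineage markers were detected in every group. Their summed level was 1940 to 2080 CPM in edited 697, against 1920 to 2130 in control 697, and 3080 to 3180 CPM in edited KOPN-8, against 2590 to 2700 in control KOPN-8, where 6 of the 8 rose and 1 fell, beside 11.5% of all genes called higher and 17.2% lower in that line. In edited 697, EBF1 rose (log2 fold change 0.29, edgeR adjusted p = 0.00482) and CD79A fell (-0.49, adjusted p = 0.00106), both named after their values were seen. T and NK markers summed to 8.77 to 12.3 CPM in edited 697, against 3.92 to 5.20 in control 697, and to 56.1 to 65.0 CPM in edited KOPN-8, against 53.2 to 56.9 in control KOPN-8; NKG7 was the only gene of the 5 that passed the filter, and CD3D was at 0 in every library. The 5 myeloid markers summed to 0.883 to 1.75 CPM in edited 697, against 1.70 to 2.18 in control 697, and to 2.72 to 3.44 CPM in edited KOPN-8, against 0.38 to 1.05 in control KOPN-8, and 4 erythroid markers stayed at or under 0.111 CPM. The part of these shifts in the results was not tested.

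All 9 genes were expressed in all 12 libraries, and their summed level overlapped between edited and control cells of each line. It averaged 4550 ± 171 CPM in edited 697, against 4590 ± 323 CPM in control 697 (SD, n = 3 each). In KOPN-8 it averaged 4874 ± 147 CPM in edited cells, against 4903 ± 275 CPM in control cells. B2M and HLA-B make up most of these sums. In 697, 3 of the 9 genes fell in edited cells (HLA-F, TAP2 and TAPBP) and none rose; over all genes tested 9.45% were called, 4.85% higher and 4.6% lower. In KOPN-8, NLRC5 rose and TAP1 fell, while 28.7% of all genes were called, 11.5% higher and 17.2% lower, so 2 of 9 is a share near the background. A gene was called at a Benjamini-Hochberg adjusted p under 0.05 in edgeR's quasi-likelihood test. The median log2 fold change of the 9 was -0.06 in 697 and -0.02 in KOPN-8, beside 0 over all genes in each line. No member was called in both lines. The share of all genes called in both was not computed, so nothing is read from this.

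**Figure D1:**
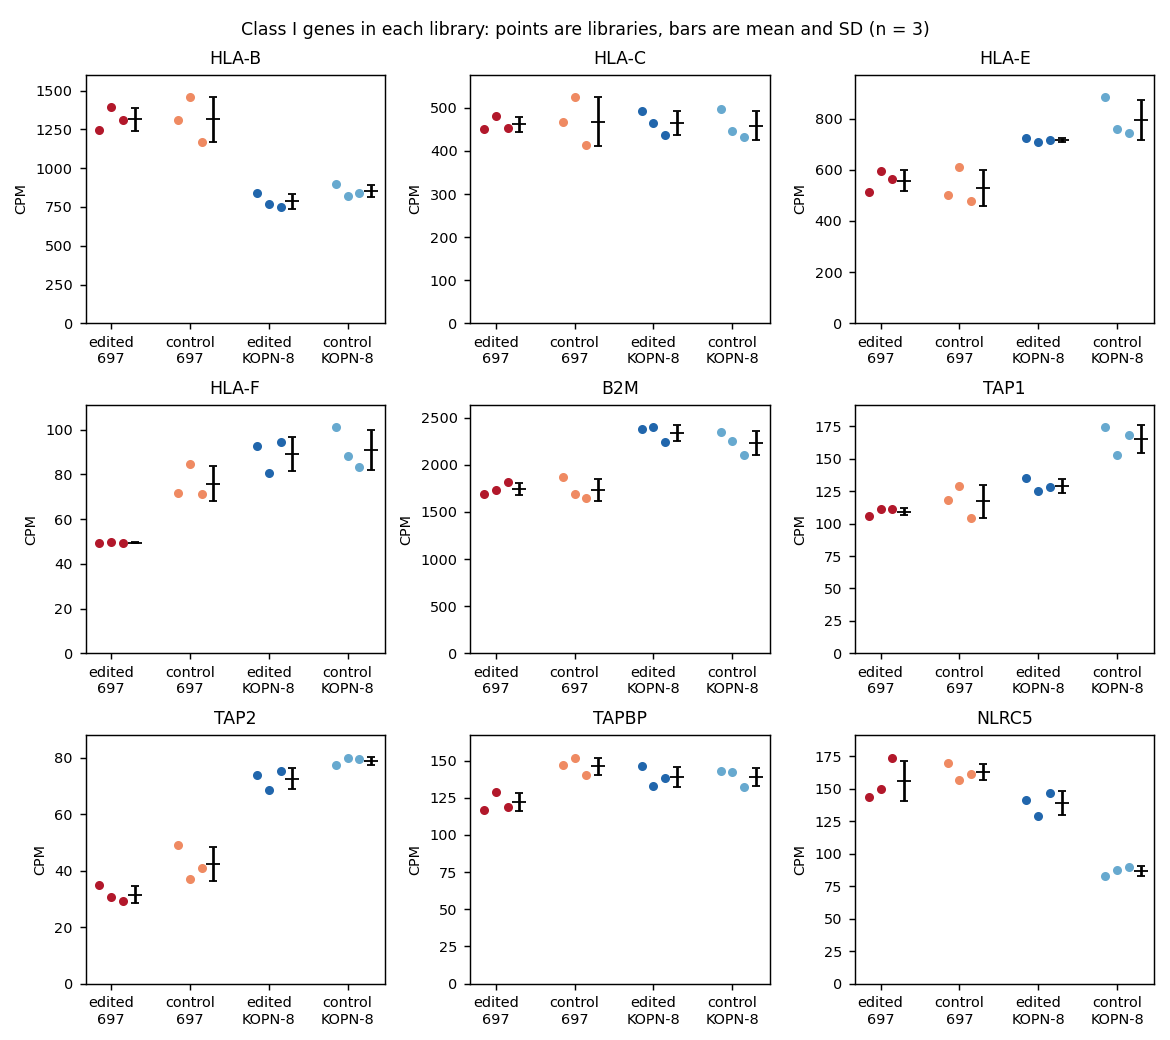
CPM of the 9 class I genes in each library (points) with the group mean and SD (bars), 3 libraries per group, each panel with its own axis starting at 0. Of the genes called, HLA-F, TAP2 and TAPBP lie lower in edited than in control 697, and NLRC5 lies higher and TAP1 lower in edited than in control KOPN-8. In KOPN-8 the edited libraries of TAP2 and HLA-E also lie below all controls, without passing the test.

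Of the heavy chains followed here, HLA-F was the one that changed, and in 697 alone by the test. HLA-F had 49.5, 49.6 and 49.3 CPM in edited 697, against 71.5, 84.7 and 71.2 CPM in control 697. Every edited library lay below every control library, as also held for TAP2 and TAPBP; over all genes tested the groups did not overlap for 24.1% in this line. The log2 fold change was -0.62 ± 0.0876 (SE; 95% interval -0.80 to -0.44; edgeR adjusted p = 2.55e-05). In KOPN-8 HLA-F had 92.7, 80.6 and 94.4 CPM in edited cells, against 101, 88.2 and 83.5 CPM in control cells. These groups overlapped, and the log2 fold change was -0.02 (95% interval -0.19 to 0.15; edgeR adjusted p = 0.908). An antisense gene, HLA-F-AS1, overlaps HLA-F on the opposite strand, but its 186 counts over all libraries come to 1.31% of the HLA-F counts.

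HLA-B, the most abundant of the heavy chains followed here, did not pass the test in either line. HLA-B had 1247, 1393 and 1308 CPM in edited 697, against 1313, 1458 and 1170 CPM in control 697, with a log2 fold change of 0.00 (95% interval -0.16 to 0.17). In KOPN-8 it had 839, 771 and 747 CPM in edited cells, against 897, 821 and 840 CPM in control cells. The KOPN-8 groups overlapped and the log2 fold change was -0.12 (95% interval -0.28 to 0.05; edgeR adjusted p = 0.297). HLA-C had 450, 482 and 454 CPM in edited 697, against 467, 525 and 413 CPM in control 697, and 492, 465 and 436 CPM in edited KOPN-8, against 497, 447 and 433 CPM in control KOPN-8. Its groups overlapped in both lines, with log2 fold changes of -0.02 (95% interval -0.19 to 0.15) in 697 and 0.02 (-0.15 to 0.18) in KOPN-8. HLA-B and HLA-C are similar in sequence, so the authors' counting could split reads between them, and their gene models overlap in the annotation used here.

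HLA-E had 514, 596 and 565 CPM in edited 697, against 500, 609 and 479 CPM in control 697, and these groups overlapped. It had 724, 707 and 718 CPM in edited KOPN-8, against 884, 758 and 744 CPM in control KOPN-8. The KOPN-8 groups did not overlap, as was the case for 45.1% of all genes tested in that line, and the log2 fold change of -0.15 did not pass the test (95% interval -0.33 to 0.03; edgeR adjusted p = 0.208).

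B2M, the light chain shared by all class I molecules, did not pass the test in either line. It had 1691, 1729 and 1816 CPM in edited 697, against 1868, 1689 and 1647 CPM in control 697, and 2377, 2397 and 2242 CPM in edited KOPN-8, against 2349, 2256 and 2100 CPM in control KOPN-8. The groups overlapped in both lines. The log2 fold changes were 0.01 (95% interval -0.14 to 0.16) in 697 and 0.07 (-0.08 to 0.21) in KOPN-8.

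Of the transport genes, TAP2 and TAPBP fell in edited 697 and TAP1 fell in edited KOPN-8. TAP2, one chain of the peptide transporter, had 34.9, 30.5 and 29.1 CPM in edited 697, against 48.9, 37.0 and 41.1 CPM in control 697. The groups did not overlap, and TAP2 fell by a log2 fold change of -0.42 ± 0.0950 (SE; 95% interval -0.62 to -0.22; edgeR adjusted p = 0.00464). In KOPN-8 it had 73.8, 68.4 and 75.4 CPM in edited cells, against 77.2, 80.0 and 79.6 CPM in control cells. Those groups did not overlap either, but the log2 fold change of -0.12 did not pass the test (95% interval -0.30 to 0.06; edgeR adjusted p = 0.326).

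TAP1, the other chain of the transporter, had 135, 125 and 128 CPM in edited KOPN-8, against 174, 153 and 168 CPM in control KOPN-8. The groups did not overlap and TAP1 fell by a log2 fold change of -0.35 ± 0.0740 (SE; 95% interval -0.51 to -0.20; edgeR adjusted p = 0.000674). In 697 it had 106, 111 and 111 CPM in edited cells, against 118, 129 and 104 CPM in control cells, which overlapped (log2 fold change -0.10, 95% interval -0.26 to 0.06; edgeR adjusted p = 0.481). PSMB9 and PSMB8-AS1 overlap TAP1 on the opposite strand with 18001 and 8290 counts over all libraries, against 24033 for TAP1. The kit marks strand, but the setting used in counting is not given in the sources used here, so reads of these genes cannot be told apart with certainty.

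TAPBP, which encodes tapasin, had 117, 129 and 119 CPM in edited 697, against 147, 152 and 140 CPM in control 697. The groups did not overlap and TAPBP fell by a log2 fold change of -0.27 ± 0.0670 (SE; 95% interval -0.40 to -0.13; edgeR adjusted p = 0.0111). Without edited 697 replicate 1 this call was lost (log2 fold change -0.24, adjusted p = 0.0569). In KOPN-8 it had 146, 133 and 138 CPM in edited cells, against 143, 142 and 132 CPM in control cells. Those groups overlapped, and the log2 fold change was 0.00 (95% interval -0.13 to 0.14).

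NLRC5, the class I transactivator, rose in edited KOPN-8 and was the one member called higher in either line. It had 141, 129 and 147 CPM in edited KOPN-8, against 82.7, 87.7 and 89.7 CPM in control KOPN-8. All edited libraries lay above all controls, with a log2 fold change of 0.68 ± 0.0748 (SE; 95% interval 0.52 to 0.83; edgeR adjusted p = 1.36e-07). None of the other 8 genes was called higher in these cells, beside 11.5% of all genes tested. With only 8 genes this count cannot be told apart from that share. In 697 NLRC5 had 144, 150 and 174 CPM in edited cells, against 170, 157 and 161 CPM in control cells, which overlapped (log2 fold change -0.06, 95% interval -0.22 to 0.09; edgeR adjusted p = 0.676). The edited KOPN-8 mean of 139 ± 9.11 CPM thus lay between that of control KOPN-8 (86.7 ± 3.58 CPM) and those of edited 697 (156 ± 15.7 CPM) and control 697 (163 ± 6.31 CPM).

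**Figure D2:**
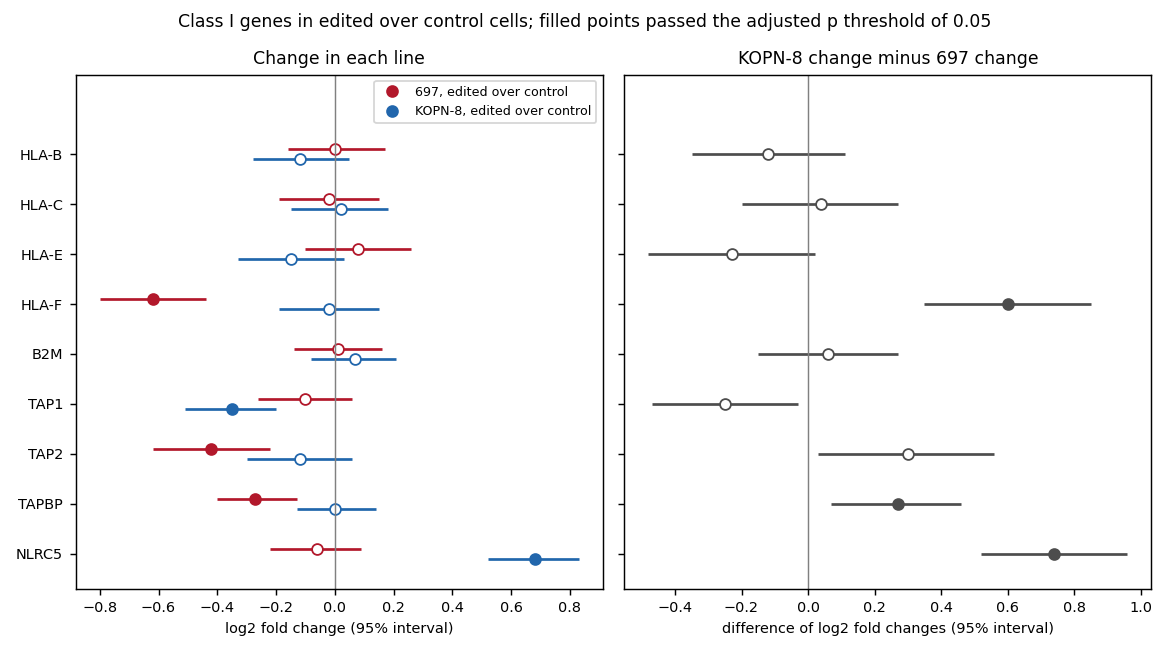
Log2 fold change of each class I gene, edited over control, in 697 and KOPN-8 (left) and the difference of both changes, KOPN-8 minus 697 (right), with 95% intervals from 3 libraries per group; filled points have an adjusted p under 0.05. HLA-F, TAP2 and TAPBP are filled below 0 in 697, TAP1 below 0 and NLRC5 above 0 in KOPN-8.

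The change itself differed between the lines for 3 of the 9 genes, while 19.5% of all genes tested differed (7.46% higher and 12.1% lower). These were HLA-F, with a difference of 0.60 ± 0.121 (KOPN-8 change minus 697 change, log2, SE; edgeR adjusted p = 0.000746), NLRC5, with 0.74 ± 0.105 (adjusted p = 1.05e-05), and TAPBP, with 0.27 ± 0.0941 (adjusted p = 0.0477). The TAPBP difference did not pass without the filter on low counts (0.28, adjusted p = 0.0691) or without the robust fit (0.27, adjusted p = 0.0501). TAP1 and TAP2, each called in 1 line, did not pass the test of the difference: it was -0.25 for TAP1 (95% interval -0.47 to -0.03; edgeR adjusted p = 0.101) and 0.30 for TAP2 (95% interval 0.03 to 0.56; edgeR adjusted p = 0.110). With same-numbered libraries as blocks, TAP1 (adjusted p = 0.0256), TAP2 (0.0261) and HLA-E (-0.23, adjusted p = 0.0489) passed it too by edgeR. Over all genes 3864 passed in that fit, against 2971 in the main fit.

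Compared at baseline, 5 class I genes were higher in control KOPN-8 than in control 697, 2 were lower and 2 did not pass the test. Over all genes 73.3% were called, 36.6% higher and 36.7% lower, so the count itself is near the background; the groups did not overlap for 6 of the 9 and for 76.3% of all genes. The members' median log2 fold change was 0.26, beside -0.01 over all genes. The 123 further genes tested between HLA-F and TAPBP on chromosome 6 had a median of 0.29, with 48.8% higher and 22.0% lower. On the rest of chromosome 6 the median was 0.06, with 41.3% higher and 34.9% lower. A positive median was thus not particular to the members. TAP2 differed most among the members that were higher, at 78.9 ± 1.47 CPM in control KOPN-8 and 42.3 ± 6.06 CPM in control 697 (log2 fold change 0.90, edgeR adjusted p = 2.5e-09). HLA-E (0.59, adjusted p = 1.68e-06), TAP1 (0.49, adjusted p = 2.34e-06) and B2M (0.37, adjusted p = 8.05e-05) were also higher in KOPN-8. HLA-F was higher by 0.26 (adjusted p = 0.00858), although its libraries overlapped, and that call was lost with upper-quartile scaling (0.17, adjusted p = 0.0833), without control 697 replicate 3 (0.19, adjusted p = 0.0765) and without control KOPN-8 replicate 1 (0.18, adjusted p = 0.0722). NLRC5 was lower in KOPN-8, at 86.7 ± 3.58 CPM in control KOPN-8 and 163 ± 6.31 CPM in control 697 (-0.91, adjusted p = 9.4e-11), and so was HLA-B, at 853 ± 39.9 CPM in control KOPN-8 and 1314 ± 144 CPM in control 697 (-0.62, adjusted p = 1.67e-07). HLA-C (-0.03, adjusted p = 0.755) and TAPBP (-0.07, adjusted p = 0.323) did not pass; TAPBP passed with upper-quartile scaling (-0.16, adjusted p = 0.0267). The lines carry their own HLA alleles, which the reference need not match, so levels of HLA-B and HLA-C between lines may also hold differences in mapping; that part was not tested.

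**Figure D3:**
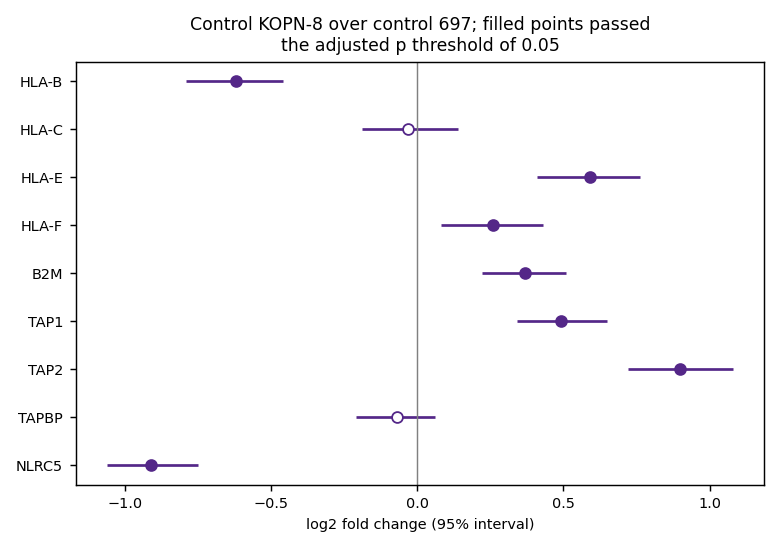
Log2 fold change of the 9 class I genes in control KOPN-8 over control 697, with 95% intervals from 3 libraries per group; filled points have an adjusted p under 0.05. Of the filled points, HLA-B and NLRC5 lie below 0, and TAP2 lies farthest above it, at 0.90.

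Levels of different genes were compared as mean CPM per kilobase of the principal transcript in a GENCODE annotation, which is not the authors' own. On this scale the order in edited 697 was B2M (1614), HLA-B (851), HLA-C (301), HLA-E (215), TAPBP (64.4), TAP1 (37.0), HLA-F (30.3), NLRC5 (23.0) and TAP2 (12.6), and TAP1 and HLA-F did not overlap. In control 697 HLA-F (46.4) stood above TAP1 (39.6), with overlap at 43.5 to 51.8 for HLA-F and 35.2 to 43.6 for TAP1, and the other places were the same. In edited KOPN-8 the order was B2M (2163), HLA-B (508), HLA-C (302), HLA-E (275), TAPBP (73.7), HLA-F (54.6), TAP1 (43.7), TAP2 and NLRC5 (20.5). HLA-C, at 284 to 321, did not overlap HLA-E, at 272 to 278, and HLA-F, at 49.3 to 57.8, did not overlap TAP1, at 42.1 to 45.6. In control KOPN-8 HLA-E (306) stood above HLA-C (299) and TAP1 (55.9) above HLA-F (55.5), both pairs with overlap, and NLRC5 was last at 12.8. These places depend on the length chosen, since the B2M principal transcript has 1081 bases and its joined exons 6079. Per kilobase of joined exons, HLA-B stood above B2M in 697, at 431 against 287 in edited and 431 against 285 in control cells. HLA-E then stood above HLA-C in both edited groups, at 188 against 184 in 697 and 241 against 185 in KOPN-8, and in edited 697 NLRC5 (12.6) stood above HLA-F (11.4). TAP1 stood above HLA-F in every group on this scale, also where HLA-F was higher per kilobase of principal transcript. The values were 26.9 against 20.6 in edited KOPN-8 and 24.4 against 17.5 in control 697. In control KOPN-8 TAP1 (34.4) also stood above TAPBP (27.5). In both KOPN-8 groups B2M stayed first on this scale.

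Ratios within each library show how the members shifted against each other, and they are given with no test. On the same scale, HLA-F over HLA-E was 0.141 ± 0.0106 in edited 697, against 0.228 ± 0.00768 in control 697, and 0.198 ± 0.0148 in edited KOPN-8, against 0.182 ± 0.00326 in control KOPN-8 (SD, n = 3 each). B2M over the sum of the 4 heavy chains was 1.16 ± 0.0647 in edited 697, against 1.15 ± 0.137 in control 697, and 1.90 ± 0.0712 in edited KOPN-8, against 1.71 ± 0.0692 in control KOPN-8. HLA-B over HLA-C was 2.83 ± 0.0668 in edited 697, against 2.79 ± 0.0292 in control 697, and 1.68 ± 0.0306 in edited KOPN-8, against 1.85 ± 0.0697 in control KOPN-8. TAP1 over TAP2 was 2.95 ± 0.331 in edited 697, against 2.37 ± 0.497 in control 697, and 1.51 ± 0.0612 in edited KOPN-8, against 1.77 ± 0.144 in control KOPN-8. HLA-E over HLA-B was 0.252 ± 0.00631 in edited 697, against 0.239 ± 0.0116 in control 697. In KOPN-8 it was 0.543 ± 0.0295 in edited cells, against 0.554 ± 0.03 in control cells. In 697 HLA-F over HLA-E did not overlap between edited and control cells, and the other ratios overlapped. In KOPN-8 HLA-F over HLA-E and HLA-E over HLA-B overlapped, and the other 3 did not. There B2M over heavy chains was higher in each edited library, and HLA-B over HLA-C and TAP1 over TAP2 were lower. Among single genes tested, the groups did not overlap for 24.1% in 697 and 45.1% in KOPN-8.

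The other genes of the pathway are counted by list, beside 9.45% of all genes called in 697 and 28.7% in KOPN-8. Of 6 peptide loading and trimming genes (calreticulin, calnexin, PDIA3, TAPBPL and the ERAP peptidases), 1 rose and none fell in 697, and none was called in KOPN-8 (medians -0.09 and -0.05). ERAP2, a peptidase that trims peptides in the endoplasmic reticulum, was at 137 ± 5.61 CPM in edited 697, against 118 ± 5.65 CPM in control 697 (log2 fold change 0.21, edgeR adjusted p = 0.0457), a call that was lost in 11 of 21 other settings (0.18 to 0.25). Of 6 immunoproteasome and activator genes, 1 rose in each line and none fell (medians 0.02 and 0.11). PSMB9, an interferon-inducible catalytic subunit, was at 76.5 ± 2.31 CPM in edited 697, against 63.5 ± 3.94 CPM in control 697 (log2 fold change 0.27, edgeR adjusted p = 0.0141). That call was lost with the 697 libraries alone and without control replicate 1, control replicate 3 or edited replicate 2, over a range of 0.24 to 0.32. PSMB10, another such subunit, was at 70.2 ± 2.75 CPM in edited KOPN-8, against 58.6 ± 3.22 CPM in control KOPN-8 (log2 fold change 0.26, edgeR adjusted p = 0.0197). It was lost without control KOPN-8 replicate 2 or edited KOPN-8 replicate 1 or 2, over a range of 0.21 to 0.29.

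PSMB5, the constitutive subunit that PSMB8 replaces, had 60.7, 61.4 and 57.6 CPM in edited KOPN-8, against 96.7, 93.3 and 94.5 CPM in control KOPN-8. It fell by a log2 fold change of -0.66 (edgeR adjusted p = 1.49e-06), with no overlap, and was the 1 of 3 constitutive counterparts called. Over all genes in KOPN-8 28.7% were called and 45.1% did not overlap, so the count of 1 of 3 is near the background. In 697 PSMB5 was not called, at 86.0 ± 12.9 CPM in edited cells and 91.9 ± 6.89 CPM in control cells, and the change differed between the lines (-0.57, edgeR adjusted p = 0.00119).

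Of 15 enhanceosome and interferon gamma genes, 1 rose and none fell in 697, and 3 rose and 3 fell in KOPN-8 (medians 0.08 and 0.10), beside 9.45% of all genes called in 697 and 28.7% in KOPN-8. The receptor chains of interferon gamma moved in opposite directions in KOPN-8. IFNGR1, the ligand-binding chain, had 93.0, 104 and 93.0 CPM in edited KOPN-8, against 162, 158 and 162 CPM in control KOPN-8 (log2 fold change -0.74, edgeR adjusted p = 2.05e-08). IFNGR2, the signalling chain, had 49.6, 41.8 and 42.0 CPM in edited KOPN-8, against 26.8, 26.6 and 26.6 CPM in control KOPN-8 (log2 fold change 0.74, edgeR adjusted p = 2.16e-06). Both groups stood fully apart, and the changes differed from those in 697 (-0.72, adjusted p = 5.08e-05 for IFNGR1 and 0.52, adjusted p = 0.0139 for IFNGR2). JAK1, a kinase of the receptor, rose in KOPN-8, at 259 ± 8.53 CPM in edited and 216 ± 3.74 CPM in control cells (log2 fold change 0.26, edgeR adjusted p = 0.00675). RFXANK, a subunit of the RFX complex on class I promoters, rose in 697, at 37.5 ± 0.696 CPM in edited and 30.1 ± 2.26 CPM in control cells (log2 fold change 0.32, edgeR adjusted p = 0.0136), a call lost with the 697 libraries alone and without control 697 replicate 1 (0.26 to 0.35). The IFNGR2 difference between lines was lost without edited KOPN-8 replicate 1 (0.43 to 0.61). The other KOPN-8 calls, named after their values were seen, were ATF1 (higher) and JAK2 and IRF2 (lower).

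Of 11 other class I-like chains, 8 could be tested. In 697 1 rose and none fell (median 0.53), and in KOPN-8 2 rose and 2 fell (median -0.06), beside the same 9.45% and 28.7% of all genes. The 697 median rests partly on genes with few reads there, so it is not read as a shift of the list. HFE had 1 count in edited and 0 in control 697, and CD1C had 7 and 5. HLA-G (0.52) and FCGRT (0.53), at the median, were not called. CD1C, HLA-G and FCGRT are named after their values were seen. MICA, a stress ligand of the NKG2D receptor, had 7.44, 8.61 and 7.90 CPM in edited 697, against 3.79, 4.60 and 3.84 CPM in control 697, with no overlap (log2 fold change 0.96, edgeR adjusted p = 8.92e-05). It was at 10.5 ± 0.268 CPM in edited and 9.64 ± 0.582 CPM in control KOPN-8, and the change differed between the lines (-0.84, edgeR adjusted p = 0.0029). In KOPN-8, MR1, which shows vitamin B metabolites to MAIT cells, was at 50.5 ± 2.07 CPM in edited and 63.0 ± 2.60 CPM in control cells (log2 fold change -0.32, edgeR adjusted p = 0.00384). ULBP3, another NKG2D ligand, was at 2.15 ± 0.217 CPM in edited and 3.88 ± 0.312 CPM in control KOPN-8 (log2 fold change -0.84, edgeR adjusted p = 0.0072). HFE, which acts in iron sensing, was low, at 1.90 ± 0.368 CPM in edited and 0.556 ± 0.108 CPM in control KOPN-8 (log2 fold change 1.79, edgeR adjusted p = 0.000381).

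Of 20 interferon-induced genes outside antigen presentation, 18 were tested. In KOPN-8 7 rose and none fell (median 0.19), beside 11.5% of all genes called higher, and in 697 2 rose and 1 fell (median -0.03), beside 4.85% called higher and 4.6% lower. STAT2, a factor of type I interferon signalling, had 208, 204 and 207 CPM in edited KOPN-8, against 138, 148 and 150 CPM in control KOPN-8 (log2 fold change 0.50, edgeR adjusted p = 2.06e-06). IFIT3, an interferon-induced antiviral gene, had 9.27, 8.31 and 8.98 CPM in edited KOPN-8, against 5.34, 4.31 and 4.57 CPM in control KOPN-8 (log2 fold change 0.91, edgeR adjusted p = 4.27e-05). It was at 2.45 ± 0.0897 CPM in edited and 3.44 ± 0.253 CPM in control 697, and the difference between the lines passed the test (1.40, edgeR adjusted p = 0.000156), as did that of STAT2 (0.48, adjusted p = 0.000813). IFIT2, a related gene, was at 5.37 ± 0.0706 CPM in edited and 2.24 ± 0.440 CPM in control KOPN-8 (log2 fold change 1.27, edgeR adjusted p = 2.13e-05). GBP4, a guanylate-binding protein, rose in both lines, at 33.9 ± 1.12 CPM in edited and 25.4 ± 2.27 CPM in control 697 (0.41, edgeR adjusted p = 0.00395) and at 78.9 ± 8.45 CPM in edited and 66.1 ± 1.95 CPM in control KOPN-8 (0.25, edgeR adjusted p = 0.0204). The KOPN-8 call of GBP4 was lost without control KOPN-8 replicate 1 or 3 or edited KOPN-8 replicate 2 (0.16 to 0.30). The other 697 calls, named after their values were seen, were OAS1 (0.84, higher; lost without edited 697 replicate 1) and ISG15 (-0.58, lower).

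**Figure D4:**
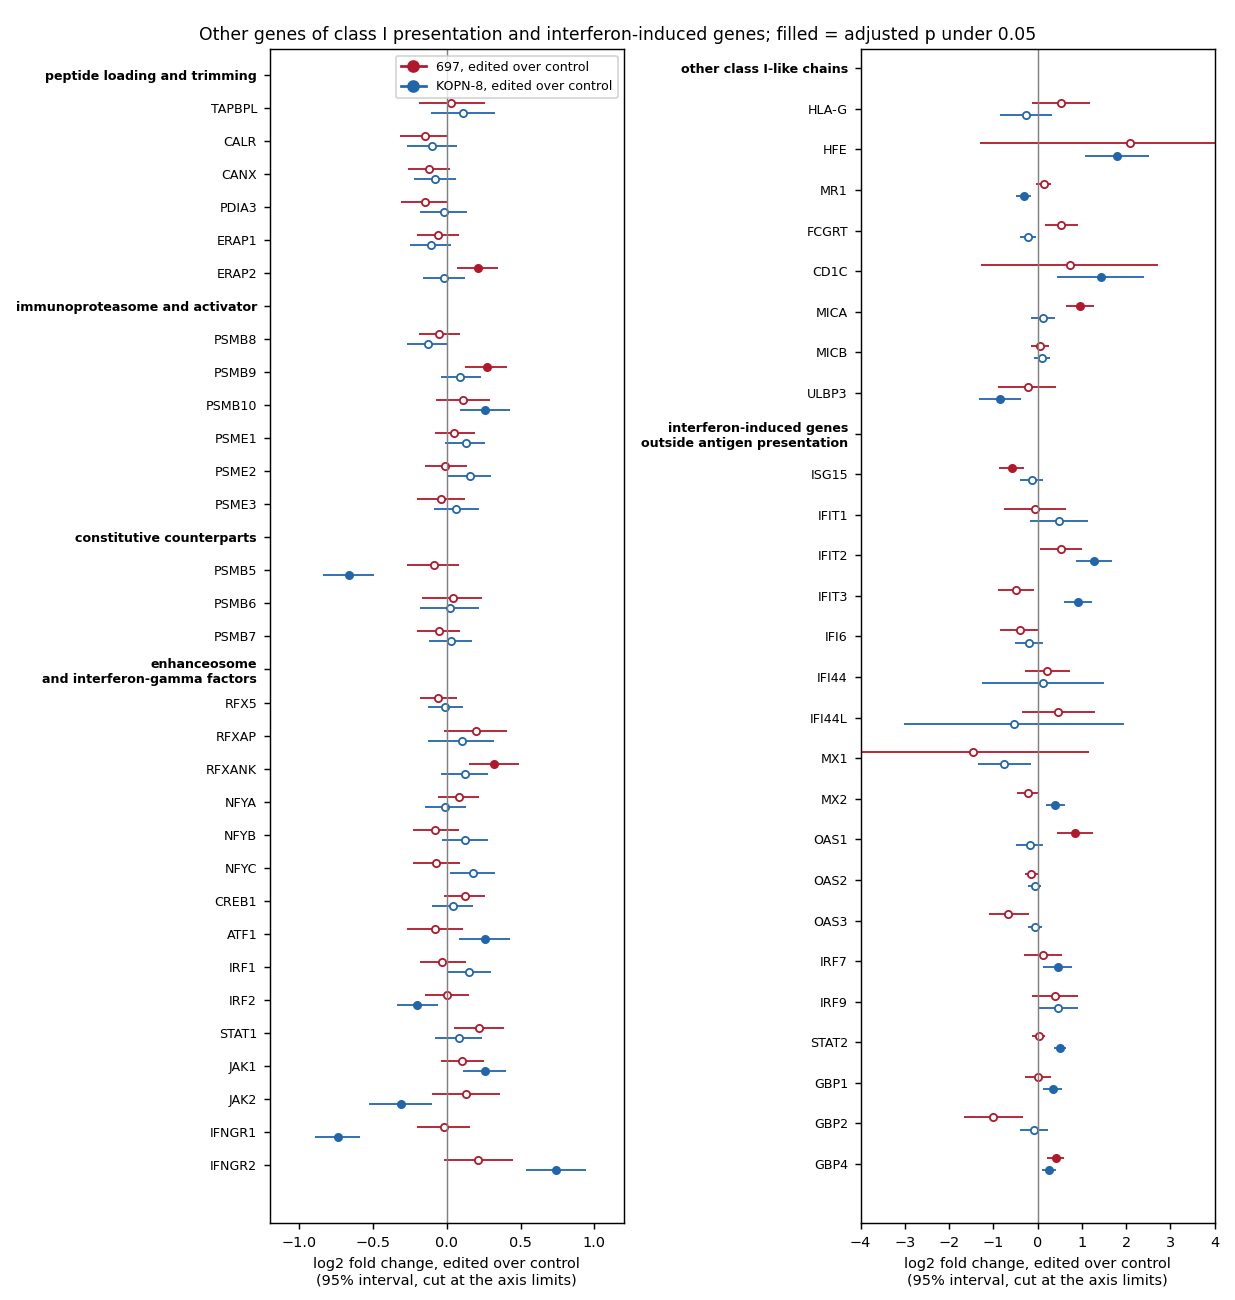
Log2 fold change, edited over control, with 95% intervals (3 libraries per group), for the other pathway genes and interferon-induced genes in 697 and KOPN-8; filled points have an adjusted p under 0.05 and the panels have different axes. PSMB5 and IFNGR1 lie below 0 and IFNGR2 above 0 in KOPN-8, and MICA lies above 0 in 697.

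The 2 tested genes whose library-to-library pattern was most like each member's were taken by the root mean square difference of log2 CPM over the 12 libraries, after centring within each line, among 10399 genes that averaged 5 CPM or more. Centring was within each line and not within each group, so the difference between edited and control cells is part of this distance. That the nearest genes changed as the member did was thus set by the selection. A member's own root mean square about its line means was 0.0643 for B2M and 0.252 for NLRC5. For NLRC5 the nearest genes were GEN1 (0.0626) and HIPK3 (0.0628), which rose in edited KOPN-8 by log2 fold changes of 0.61 and 0.68. For HLA-F they were FASN (0.0842) and FHOD1 (0.0878), which fell in edited 697 by -0.49 and -0.73, and for TAP2 they were SLC5A6 (0.0815) and PPA2 (0.0816), which fell there by -0.32 and -0.44. TAP1 was nearest to CTSD (0.0599) and RNF7 (0.0657), and TAPBP to GPR161 (0.0502) and COMMD10 (0.0506). HLA-B was nearest to TRIP6 (0.0496) and RNF7 (0.0516), HLA-E to ECH1 (0.0476) and YPEL1 (0.0558), HLA-C to NOP53 (0.0497) among the genes reported here, and B2M to TENT2 (0.0344) and RSBN1L (0.0368).

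HLA-B, HLA-C, HLA-E, HLA-F, TAP1, TAP2 and TAPBP all lie on chromosome 6, B2M lies on chromosome 15 and NLRC5 on chromosome 16. Between HLA-F and TAPBP 123 further genes were tested. In 697 4 of them rose (3.25%) and 6 fell (4.88%), with a median log2 fold change of -0.07, beside 31 higher (5.06%) and 27 lower (4.4%) of 613 genes on the rest of chromosome 6, with a median of 0.02. In KOPN-8 8 rose (6.5%) and 16 fell (13.0%), with a median of 0.01, beside 74 higher (12.1%) and 113 lower (18.4%) of the 613, with a median of -0.02. Of the 20 tested genes on each side of NLRC5, 5 rose and 9 fell in edited KOPN-8, with a median of -0.12, against 0.68 for NLRC5 itself. The 20 on each side of HLA-F held 1 that rose and 5 that fell in edited 697, with a median of -0.11, against -0.62 for HLA-F itself. Of 38 such genes around TAP1, members left out, 0 rose and 9 fell in edited KOPN-8 (median -0.05). In edited 697, 3 rose and 4 fell of 39 around TAP2 (median -0.07), and 2 rose and 2 fell of 39 around TAPBP (-0.07). Over all genes tested, 4.85% rose and 4.6% fell in 697, and 11.5% rose and 17.2% fell in KOPN-8.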

How the data were processed

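Poly-A RNA of 12 libraries was sequenced by the authors. The submitters' processing notes name hg19 and the tools Trimmomatic, STAR and DESeq2; for tool versions, read counter, strand setting and gene models, the sources used here give nothing. The raw table holds the deposited whole-number counts per gene symbol, and the deposited normalized table is a signal the authors made by dividing each library by 1 factor, as was checked on its values. Counts were used for all results but 1 alternative. Members and lists were chosen with earlier results of these data known.

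EdgeR 4.0.16 under R 4.3.3 served for the fits, with TMM, filterByExpr and a robust quasi-likelihood test on 1 mean per group, all 12 libraries together. Benjamini-Hochberg adjustment ran over 15218 genes. The contrasts are edited minus control per line, the difference of these changes, and control KOPN-8 minus control 697. Totals of 10378769 to 18278662 counts put 3 counts, the limit a count of 0 allows, at 0.159 to 0.2925 CPM; it covers counting error only. Between replicates, chi-square divided by its degrees of freedom was 2.74 to 9.78, above sampling noise. Same-numbered edited and control libraries correlated in their deviations at 0.105, 0.207 and 0.104 in 697, and at 0.0508, 0.0362 and 0.0743 in KOPN-8. Differently numbered ones correlated at -0.108 to -0.0076 in 697 and at -0.0532 to 0.00754 in KOPN-8. Same-numbered libraries were thus more alike in both lines, though weakly in KOPN-8. The main fit is unpaired in both lines, and the replicate block is an alternative.

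Alternatives were DESeq2 1.42.0 and its size factors, upper-quartile scaling, no filter, a filter of 1 CPM, a fit that is not robust, the groups of a contrast alone, a replicate block, limma 3.58.1 on log2 of the deposited values plus 1, and each library left out. The scripts were tested on simulated data. Named genes were the 9 members, up to 4 called genes with the smallest p of each other list, the 2 nearest genes by pattern and SETD2; others are marked. 1 further class I gene is not reported here. For transcript lengths, gene order and overlaps, GENCODE on GRCh38 was read without printing its coordinates.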

Additional observations from a re-analysis of the deposited data

Results flagged for a closer look

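HLA-F differed between the lines in its response, by 0.60 on the log2 scale (KOPN-8 change minus 697 change), because it fell in edited 697 and did not pass the test in KOPN-8. TAPBP differed by 0.27, the smallest of these differences, and its call was lost in several settings. NLRC5 differed by 0.74, with a rise in edited KOPN-8. Each passed edgeR's test of the difference at an adjusted p of 0.000746, 0.0477 and 1.05e-05, in that order. The causes were not tested.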

How the results depend on the processing

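Each edited group is 1 clone with 3 libraries, and the p-values measure only their spread. The calls of HLA-F, TAP2 and TAPBP in 697 and of TAP1 and NLRC5 in KOPN-8 held in all other settings, apart from TAPBP without edited 697 replicate 1. With the replicate block, 2319 genes were called in 697 against 1438 without it, and 5348 in KOPN-8 against 4370. For the difference between the lines 6 members passed against 3, beside 3864 of all genes against 2971. The block changed no other member call. Without single libraries, the members that differed between the lines numbered 2 to 5 (5 without control 697 replicate 2), those called in 697 numbered 2 to 3, those at baseline 6 to 7, and those in KOPN-8 stayed at 2. The TAPBP difference between lines was also lost without 9 of the 12 libraries, one at a time. Near-zero log2 changes turned sign when single libraries were left out: in 697 HLA-B ran from -0.08 to 0.08, HLA-C from -0.11 to 0.07 and B2M from -0.03 to 0.07; in KOPN-8 HLA-C ran from -0.03 to 0.08, HLA-F from -0.08 to 0.06 and TAPBP from -0.03 to 0.03; HLA-C ran from -0.05 to 0.14 for the line difference and from -0.13 to 0.06 at baseline. A fit of the groups of a contrast alone does not apply to the line difference. No scaling moved the median of all genes by over 0.1. HFE, with 98 counts in edited and 27 in control KOPN-8, has few reads behind its value.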

Other observations

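The class I pseudogenes HLA-V, HLA-K, HLA-L and HLA-J, near the heavy chains, had more counts in KOPN-8 than in 697 libraries. They were chosen after their values were seen, others are not given, and no test is given. Between the control groups 76.3% of all genes tested did not overlap, so a difference between the lines is not particular to these genes. HLA-V had 0 counts in each of the 3 edited and 3 control 697 libraries, and 81 to 143 counts in edited KOPN-8 and 103 to 137 in control KOPN-8 libraries. HLA-K had 1 to 3 counts in edited 697, against 2 to 7 in control 697, and 85 to 89 in edited KOPN-8, against 91 to 115 in control KOPN-8. HLA-L had 12 to 15 counts in edited 697, against 13 to 40 in control 697, and 146 to 220 in edited KOPN-8, against 148 to 221 in control KOPN-8. HLA-J differed less, with 13 to 40 counts in edited 697, against 44 to 67 in control 697, and 97 to 116 in edited KOPN-8, against 90 to 112 in control KOPN-8; these are unscaled counts.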
